A study of Mus musculus with 1 sample.

Results

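Transcripts of 3 proteases and 4 protease inhibitors of epithelial cells were measured in single cells of mouse gastric organoids. The proteases are Prss22, St14 and Mmp7, and the inhibitors are Slpi, Wfdc2, Spint1 and Spint2. These 7 genes were chosen by name, with earlier results of these data known, and each was found once, by symbol, among the 32285 genes of the count matrix. Organoids are balls of epithelium that grow in a gel from dissociated tissue, here stomach. The only group is a library of genotype wild type with treatment none, from cultures taken 7 days after seeding and digested for 30 min at 37 °C with 0.05% trypsin-EDTA. Strain, sex and age of the mice and the number of cultures are not given in the sources used here. The KP and EKP organoids that the series text names were not analysed here.

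Extracellular proteases of an epithelium cut adhesion proteins, receptors, growth factors and defence peptides, and most are made as inactive precursors. Matriptase, the product of St14, is a serine protease anchored in the cell membrane that activates other precursors and the receptor PAR2, and the Kunitz inhibitors HAI-1 and HAI-2, encoded by Spint1 and Spint2, hold it in check. Prss22 encodes tryptase epsilon, a secreted serine protease of epithelia, and Mmp7 encodes matrilysin, a small secreted metalloproteinase that processes defensins and cell surface ligands. Slpi encodes secretory leukocyte protease inhibitor, which blocks neutrophil elastase, and Wfdc2 encodes HE4, a secreted protein of the same WAP (whey acidic protein) family.

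The catalytic and inhibitory parts of these proteins fall into 4 sequence families, and their coding sequences are shown so that the protease and inhibitor classes can be set side by side. Sequences were read from GENCODE release M21 (GRCm38), with codons counted from the start codon of the longest coding transcript. St14 has 855 codons, Prss22 307 and Mmp7 267. In the catalytic serine motif of the trypsin family, capitals mark the serine codon. This stretch crosses an intron in both genes, from exon 18 to 19 in St14 (chr9:31090010-31090413, minus strand) and from exon 5 to 6 in Prss22 (chr17:23994027-23994610, minus strand). Of its 30 bases, 22 were identical between the genes.
St14 codons 799 to 808: gactcctgccagggtgacTCTggtggcccc
Prss22 codons 236 to 245: gatgcttgtctgggcgacTCTgggggtccc

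Mmp7 belongs to another class, in which 3 histidines, in capitals, hold a zinc ion. The stretch lies in exon 5 of 6 (chr9:7697614-7697646, plus strand).
Mmp7 codons 217 to 227: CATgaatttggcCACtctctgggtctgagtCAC

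Spint1 and Spint2 each held 2 Kunitz signatures, the fold that plugs the active site of trypsin-like enzymes. Capitals mark cysteine codons. Among the 6 pairs of these 4 signatures, 31 to 38 of 57 bases were identical, so the domains of 1 gene were no more alike than domains of different genes (36 within Spint1 and 32 within Spint2). The first of each gene lies in exon 4 of Spint1 (chr2:119245826-119245882, plus strand) and in exon 2 of Spint2 (chr7:29263620-29263676, minus strand).
Spint1 codons 272 to 290: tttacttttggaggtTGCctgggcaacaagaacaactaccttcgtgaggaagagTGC
Spint2 codons 66 to 84: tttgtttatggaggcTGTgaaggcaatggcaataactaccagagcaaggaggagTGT

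Slpi and Wfdc2 each held 2 WAP cores, again with cysteine codons in capitals. The cores nearest the end of the coding sequence lie in exon 3 of Slpi (chr2:164354916-164354957, minus strand) and exon 4 of Wfdc2 (chr2:164565851-164565892, plus strand), and 28 of their 42 bases were identical. Over the 6 pairs of the 4 cores, 24 to 28 bases were, with 26 within Slpi and 26 within Wfdc2.
Slpi codons 106 to 119: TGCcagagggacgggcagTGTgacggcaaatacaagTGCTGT
Wfdc2 codons 147 to 160: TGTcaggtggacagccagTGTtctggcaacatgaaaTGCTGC

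Of 1991 barcodes, 1892 had 500 or more genes and no more than 20% mitochondrial UMIs (unique molecular identifiers, 1 per captured transcript), and these cells were used. They held 20118334 gene UMIs, with a median of 8512.5 UMIs per cell (range 890 to 47183). All 5 epithelial markers had a UMI in 52.1% to 99.6% of cells. Of the 5 fibroblast, 3 endothelial and 4 mast cell markers, none had a UMI in over 5 cells. The 4 leukocyte markers had 199 UMIs, of which 196 came from Cd68. Among 5 neutrophil markers with 48 UMIs in all, Elane and S100a8 were at 0. With 1 library and no replicate, no difference was tested, and every interval is a 95% interval for counting error only. Free RNA can add UMIs to any cell, and its share was not estimated, since the library held no named cell type that should lack these 7 genes.

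Of the 3 proteases, matrilysin had the most transcripts. Mmp7 (ENSMUSG00000018623, GRCm38 chr9:7692090-7699585, plus strand) had 2126 UMIs, or 106 CPM (counts per 1000000 gene UMIs; 101 to 110). A Mmp7 UMI was found in 553 cells, or 29.2% (27.2% to 31.3%). St14 (ENSMUSG00000031995, chr9:31089402-31131853, minus strand) was lower, with 489 UMIs and a level of 24.3 CPM (22.2 to 26.6), and 21.2% of cells (19.4% to 23.1%) had at least 1 UMI. Prss22 (ENSMUSG00000045027, chr17:23993534-23998100, minus strand) had 468 UMIs, giving 23.3 CPM (21.2 to 25.5), and was seen in 16.2% of cells (14.6% to 18.0%). The intervals of the St14 and Prss22 levels overlapped, and that of Mmp7 lay above both. A 3' library counts transcript ends, so levels were not divided by gene length, and genes can still differ in how well their ends are captured.

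Among the inhibitors, Wfdc2 stood far above the rest and Slpi was the lowest of all 7 genes. Wfdc2 (ENSMUSG00000017723, chr2:164562413-164568510, plus strand) had 94085 UMIs, or 4677 CPM (4647 to 4707). That level ranked 41 among all genes, and 1891 of 1892 cells had a UMI. Spint2 (ENSMUSG00000074227, chr7:29256323-29281912, minus strand) reached 316 CPM (308 to 323) and was seen in 88.2% of cells (86.6% to 89.6%). Spint1 (ENSMUSG00000027315, chr2:119237362-119249527, plus strand) reached 65.6 CPM (62.1 to 69.2), and 44.7% of cells (42.4% to 46.9%) held it. Slpi (ENSMUSG00000017002, chr2:164354070-164389095, minus strand) stayed at 13.6 CPM (12.1 to 15.3), and 149 cells, or 7.88% (6.70% to 9.18%), held it. The order of levels was thus Wfdc2, Spint2, Mmp7, Spint1, St14 with Prss22, and Slpi, and St14 and Prss22 were the only neighbours with overlapping intervals.

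**Figure D1:**
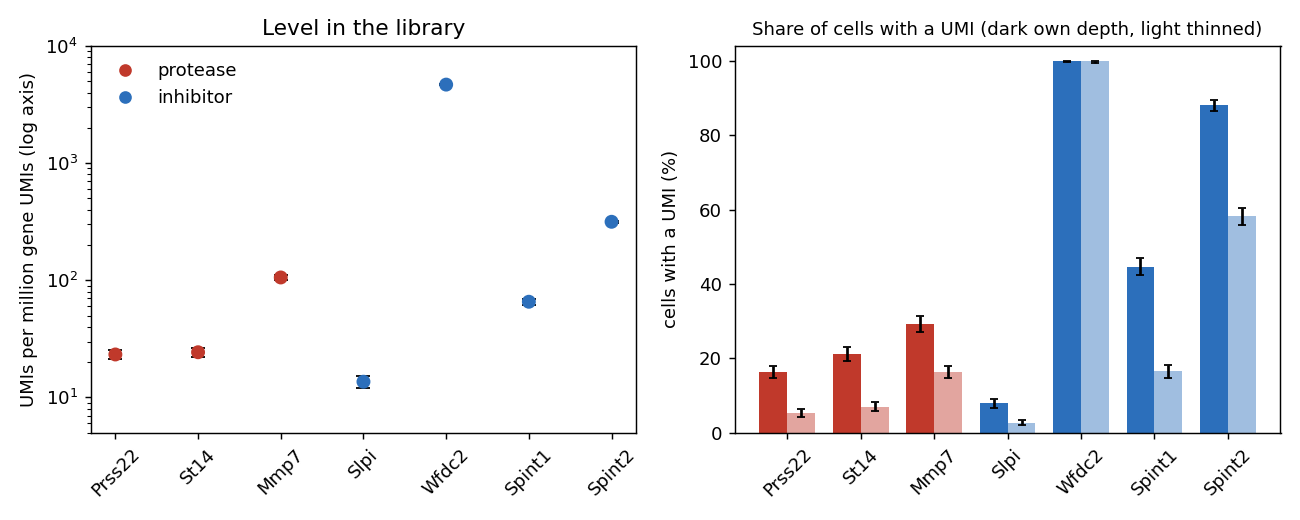
Level of each gene in CPM (gene UMIs scaled to 1000000) on a log axis (left, points) and share of cells with a UMI in percent (right, bars), with 95% counting intervals (dark bars all UMIs of the kept cells, light bars 1835 cells thinned to 3000 UMIs). Wfdc2 lies above all others at 4677 and Slpi below them at 13.6.

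To compare shares at equal depth, 1835 cells were thinned to 3000 UMIs, and 57 shallower cells were left out. The share of cells with a UMI was then 99.8% for Wfdc2, 58.3% for Spint2, 16.5% for Spint1 and 16.2% for Mmp7. It was 6.98% for St14, 5.34% for Prss22 and 2.67% for Slpi. Mmp7 had a higher level than Spint1 but was found in fewer cells before thinning, and in about as many after it (14.6% to 18.0% for Mmp7 and 14.8% to 18.3% for Spint1).

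The matrix also held multiplexing tags, oligonucleotides that mark cells of 1 suspension. CMO301 was the highest tag in 1062 of the kept cells and CMO302 in 830. The labels tie neither tag to a culture or mouse, so these are not replicates. Mmp7 was at 108 CPM in cells of the first tag and 103 CPM in cells of the second, and Wfdc2 at 4691 and 4658 CPM. For all 7 genes the interval of the ratio between tags held 1. The share of all genes for which it does was not computed, so this count is not a trait of these genes. The ratio farthest from 1 was that of Slpi, 1.27 (0.990 to 1.64).

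The 7 genes also differed in how unevenly cells carried them. Unevenness was measured as the squared coefficient of variation (CV) of the level across cells, after subtraction of counting noise and adjustment for depth. It was 12.8 for Slpi, 5.16 for Mmp7 and 3.49 for Prss22. The other 4 genes were far more even, with 0.250 for Wfdc2, 0.0929 for Spint1, 0.0757 for St14 and 0.0755 for Spint2. Over the 6682 genes with at least 200 UMIs the median was 0.188, and 5.51% of genes lay above 1, against 3 of these 7. Only 1.14% of those genes were above Mmp7, while 79.6% were above St14. At full depth the transcripts of matriptase and both of its inhibitors thus lay below the median of all genes, and those of the secreted proteases and Slpi far above it.

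**Figure D2:**
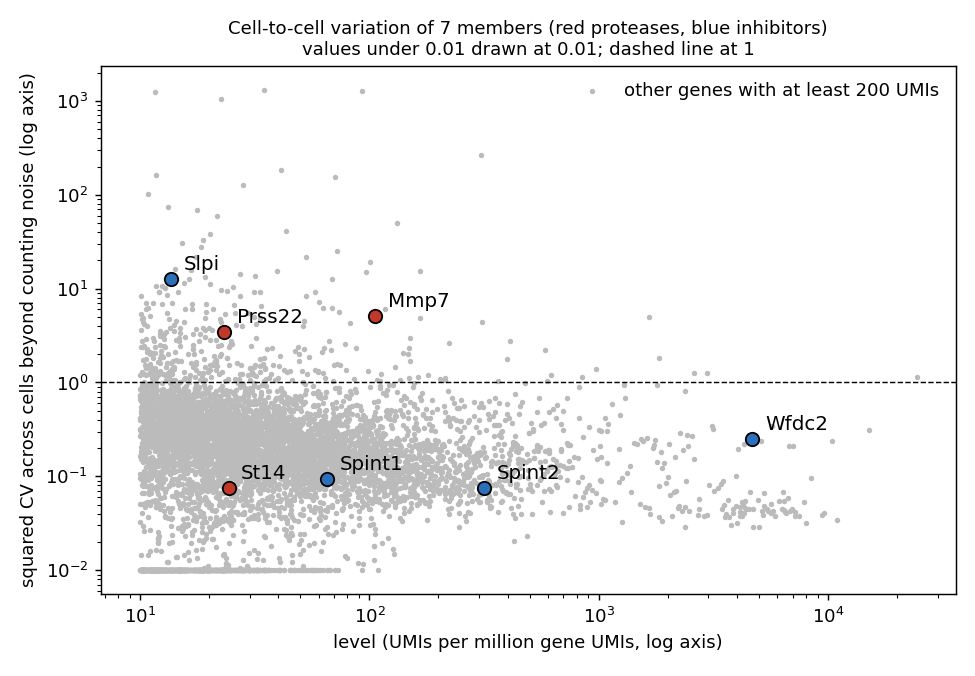
Squared coefficient of variation across cells beyond counting noise against level in CPM, both on log axes, for 6682 genes (grey) and the 7 named genes (red proteases, blue inhibitors). Slpi, Mmp7 and Prss22 lie above the dashed line at 1, and the other 4 lie at or below 0.250.

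After thinning to 3000 UMIs the values were 16.3 for Slpi, 8.98 for Mmp7, 8.40 for Prss22 and 1.51 for St14. They were 0.588 for Spint1, 0.283 for Wfdc2 and 0.146 for Spint2. Thinning left St14 with 138 UMIs and Prss22 with 125, and it raised the share of all genes above 1 to 14.4%. At this depth 8.19% of genes exceeded St14, 26.2% exceeded Spint1 and 59.1% exceeded Spint2, so of these 3 genes only Spint2 stayed in the more even part of all genes. The full-depth value of St14 was 0.175 in cells of the first tag and -0.0234 in cells of the second, on either side of 0.

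St14 and Prss22 had nearly the same level, and their distributions over cells show the contrast. St14 had 1 UMI in 330 cells, 2 to 4 UMIs in 71 cells and never more than 4. Prss22 had 1 UMI in 218 cells, 2 to 4 in 80, 5 to 9 in 8, and 14 UMIs in 1 cell. The 189 cells richest in each gene held 74.8% of its UMIs for Prss22 and 56.6% for St14.

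Mmp7 ran from 0 UMIs in 1339 cells to 37 in the richest cell, and 55 cells had at least 10. Those 55 cells held 41.0% of all Mmp7 UMIs. Slpi was more concentrated still. No Slpi UMI was found in 1743 cells, and the 19 cells richest in it held 40.9% of its UMIs. The 11 cells with at least 5 Slpi UMIs held 30.3% of them and fell in 5 of 7 clusters described below. Of these 11 cells, 6 carried the first tag and 5 the second, and none was called a doublet. Their median depth was 12142 UMIs, above that of all cells.

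Wfdc2 had at least 10 UMIs in 1753 cells, and the richest cell had 358. Spint2 had a median of 3 UMIs per cell and at most 19. Spint1 had at most 6.

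**Figure D3:**
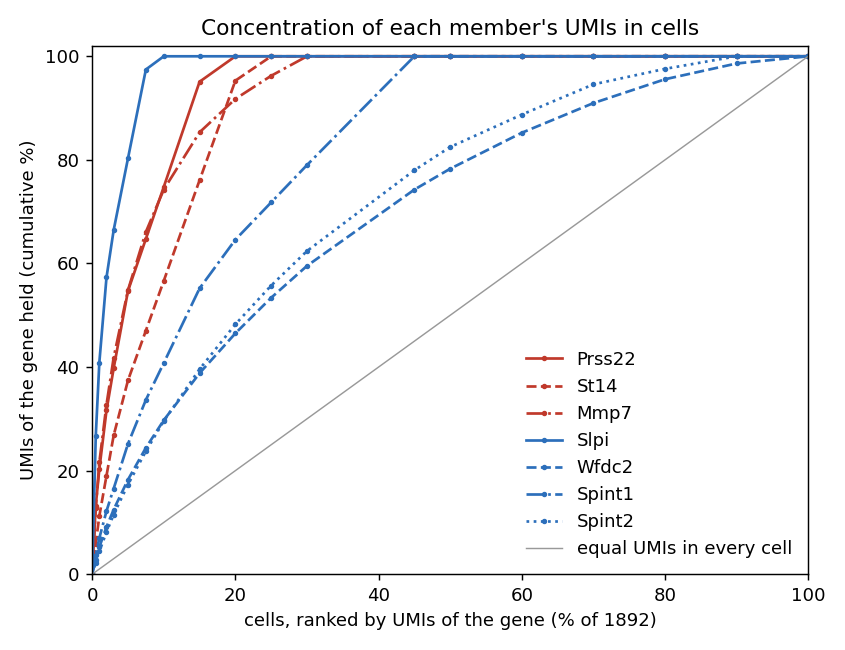
Cumulative share of each gene's UMIs in percent against cells ranked by their UMIs of that gene, in percent of 1892 cells. The Slpi curve is the steepest, with 40.9% of UMIs in 19 cells, and the Wfdc2 and Spint2 curves lie nearest the grey line of equal UMIs in every cell.

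Promoters are shown for Mmp7 and Slpi, both uneven at either depth, and for Spint1, the window with the most CG dinucleotides. RefSeq windows (GRCm38.p6) of 250 bases before the start site were found for 5 genes, and Prss22 and St14 were not in that table. The gene spans given above are from GENCODE and can place the start elsewhere. The Slpi window lies inside its span, far from the upstream end at chr2:164389095. The RefSeq start site of Wfdc2, chr2:164562715, also lies inside its span, which begins at 164562413. Capitals mark each CG dinucleotide and each match, on either strand, to TATAAA or TGAGTCA, a site of AP-1 factors. No match of 1 motif overlapped another.
Mmp7, chr9:7691840-7692089, plus strand: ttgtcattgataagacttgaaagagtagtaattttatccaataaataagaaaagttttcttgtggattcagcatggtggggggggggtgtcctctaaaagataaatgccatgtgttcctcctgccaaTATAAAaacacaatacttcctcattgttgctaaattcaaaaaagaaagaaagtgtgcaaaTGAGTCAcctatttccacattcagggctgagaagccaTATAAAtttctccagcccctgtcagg
Slpi, chr2:164356508-164356757, minus strand: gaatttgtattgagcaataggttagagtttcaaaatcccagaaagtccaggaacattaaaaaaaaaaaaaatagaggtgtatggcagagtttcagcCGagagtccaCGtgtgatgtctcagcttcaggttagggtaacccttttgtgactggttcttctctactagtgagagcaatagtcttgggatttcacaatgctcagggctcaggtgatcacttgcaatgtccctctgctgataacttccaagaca
Spint1, chr2:119237110-119237359, plus strand: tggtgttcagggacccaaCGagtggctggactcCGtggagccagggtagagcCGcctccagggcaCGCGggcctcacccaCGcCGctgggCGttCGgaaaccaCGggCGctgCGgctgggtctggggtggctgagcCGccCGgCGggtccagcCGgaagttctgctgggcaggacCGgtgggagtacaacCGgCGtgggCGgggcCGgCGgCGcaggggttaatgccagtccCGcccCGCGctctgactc

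The Mmp7 window held 0 CG dinucleotides and the Slpi window 2, against 14 for Wfdc2, 24 for Spint2 and 26 for Spint1. Mmp7 had 2 matches to TATAAA and 1 to TGAGTCA, the latter at position -63 from the start site, and the other 4 windows had none. Of all 27025 promoters in the table, 13.0% held TATAAA and 4.43% held TGAGTCA. These shares were 5.77% and 2.83% for genes with at least 200 UMIs, and 11.2% and 5.62% for those of them with a squared CV above 1. Among the 5370 genes with at least 200 UMIs and a promoter, the median was 17 CG dinucleotides. It was 10 for the 267 of these genes with a squared CV above 1 and 18 for the other 5103. These matches are descriptions of letters, and no binding was measured.

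Cells were grouped into 7 clusters from variable genes that did not include the 7 genes, the other listed proteases and inhibitors, or cell cycle genes. The clusters held 535, 406, 322, 320, 147, 100 and 62 cells. They were led by Aox3 and Scgb3a1 (cluster 1), AC168977.1 and 2610528A11Rik (cluster 2), Ly6m and Atg9b (cluster 3), Psca and Prss22 (cluster 4), Ccl20 and Cxcl2 (cluster 5), Aspm and Knl1 (cluster 6) and Cyba and Reg3g (cluster 7). Cluster 6 had 2 of 7 proliferation markers among its 10 leading genes and is called proliferating-like. The others stayed unnamed. Depth differed between them, with medians of 6274 UMIs (cluster 2) to 14365 UMIs (cluster 7), and its part in the levels by cluster was not tested.

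Mmp7 was highest in cluster 1, at 206 CPM (194 to 219), and lowest in cluster 7, at 9.87 CPM (4.74 to 18.2), a ratio of 20.9 (11.3 to 43.7). Cluster 5 followed with 156 CPM (140 to 173), then cluster 4 with 110 CPM (98.5 to 122) and cluster 6 with 87.8 CPM (72.9 to 105). Clusters 2 and 3 were low, with 44.9 CPM (37.7 to 53.1) and 31.5 CPM (26.4 to 37.2). By level, the intervals of clusters 1, 5, 4 and 6 lay above those of clusters 2, 3 and 7. The share of cells with Mmp7 after thinning placed cluster 6 lower, at 8.08% (3.55% to 15.3%), an interval that held the 8.68% of cluster 2 and the 6.96% of cluster 3. In that measure clusters 1, 5 and 4 had 28.7%, 24.3% and 15.7%, and cluster 7 had 3.28%. Cluster 7 rests on 10 Mmp7 UMIs, and without it the ratio was 6.56. With called doublets removed the ratio was 37.8, and it was 4.33 with 3 clusters and 30.8 with 10. Cluster 7 also stood apart in pit cell markers, whose 4 genes summed to 5167 CPM there and to between 90.7 and 351 CPM elsewhere, and its 7 proliferation markers summed to 1061 CPM, against 1552 CPM in cluster 6 and at most 100.5 CPM in the others. The part of these markers' cells in the low Mmp7 level was not tested.

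Prss22 followed another order. It was highest in cluster 4, at 57.5 CPM (49.4 to 66.7), where 32.2% of cells had a UMI (27.1% to 37.6%), although Prss22 was kept out of the clustering. Cluster 5 came next, at 31.7 CPM (71 UMIs). Cluster 1, the highest for Mmp7, was the lowest for Prss22, at 10.4 CPM (7.74 to 13.6), with an interval that overlapped those of clusters 2 and 6. At equal depth a Prss22 UMI was found in 12.2% of cells of cluster 4 (8.84% to 16.3%) and 2.71% of cells of cluster 1 (1.49% to 4.51%). St14 ran between 19.7 CPM (12.1 to 30.5), found in cluster 7, and 32.6 CPM (27.5 to 38.4), found in cluster 3. That is a ratio of 1.65 (1.03 to 2.78). The highest and lowest clusters were picked after the levels were seen. Such ratio intervals, for Mmp7 as well, do not allow for that choice.

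Of the inhibitors, Wfdc2 peaked in cluster 4 with 6593 CPM (6503 to 6685). Its lowest level, 3083 CPM (3031 to 3136), was in cluster 3, with cluster 2 close above at 3446 CPM (3380 to 3512). Clusters 2 and 3, low in Mmp7, were therefore also the lowest in Wfdc2. Cluster 7, the lowest in Mmp7, had 4583 CPM of Wfdc2 (4452 to 4716). Slpi was lowest in cluster 1 with 6.18 CPM, based on 31 UMIs, and highest in cluster 2 with 21.4 CPM (16.6 to 27.3), where 4 of its 11 richest cells lay. By share of cells the order was another one, with 5.67% in cluster 2 (3.62% to 8.38%) against 16.3% in cluster 5 (10.7% to 23.3%) and 15% in cluster 6, and after thinning 2.63%, 4.86% and 5.05%, with overlapping intervals. The Slpi level intervals overlapped among clusters 2, 4, 5, 6 and 7. Spint1 had 82.9 CPM (74.5 to 91.9) in cluster 3, its highest, and 42.5 CPM (30.7 to 57.2) in cluster 7, its lowest. For Spint2 the extremes were 242 CPM (213 to 274) in cluster 7 and 351 CPM (330.3 to 373) in cluster 2. St14 and Spint1 both had their highest level in cluster 3 and their lowest in cluster 7. The St14 level in cluster 7 rests on 20 UMIs, and its interval held the 20.2 CPM of cluster 4 and the 20.8 CPM of cluster 2. Cluster 7 was also the lowest for Spint2, and for Epcam, App and Aplp2 among other listed genes.

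A ratio of at least 2 between the highest and lowest cluster was reached by 4 of 7 genes (Prss22, Mmp7, Slpi and Wfdc2), and by 49.4% of the 6682 genes, so the count is near that of all genes. Median ratios were 2.14 over the 7 genes and 1.99 over all genes. At a coarser resolution with 3 clusters, only Mmp7 kept such a ratio, while Prss22 was at 1.68. At a finer resolution with 10 clusters, 5 genes had one, since St14 reached 2.15, and Slpi moved from 3.47 to 8.61. Most of the unevenness of the 3 uneven genes lay within clusters. With the cluster mean as the expectation, the squared CV was 10.9 for Slpi, 3.48 for Mmp7 and 2.22 for Prss22.

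**Figure D4:**
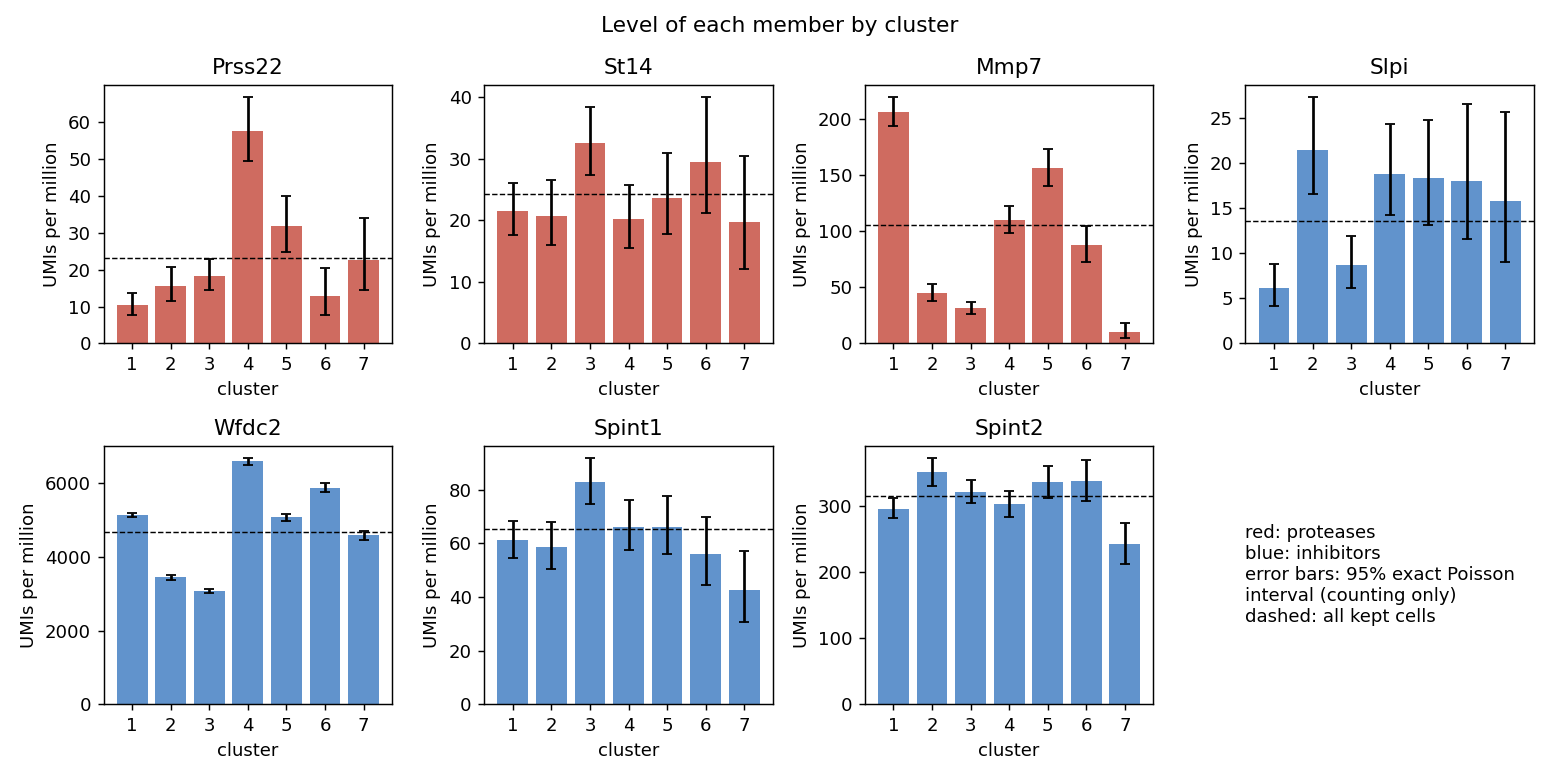
Level of each gene in CPM in clusters 1 to 7, with 95% counting intervals and the level over all kept cells as a dashed line. Mmp7 is highest in clusters 1 and 5, Prss22 in cluster 4, and St14, Spint1 and Spint2 differ by less than 2-fold between these 7 clusters.

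The 7 genes hardly varied together from cell to cell. Over 1892 cells of 1 library, Pearson r of log levels ran from -0.02 for St14 with Mmp7 to 0.14 for Mmp7 with Wfdc2 among the 21 pairs, with a median of 0.02. No pair reached 0.2, a value reached by 0.0824% of all pairs of 6682 genes, whose median was 0.01. St14 had r of 0.04 with Spint1 and 0.02 with Spint2. In counts this sparse a weak r does not show that genes are independent.

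At equal depth, co-detection told much the same. Spint2 was found in 61.7% of cells with a St14 UMI (52.7% to 70.2%) and in 58.0% of cells without one (55.6% to 60.4%). Spint1 was found in 17.2% and 16.5% of them. Slpi was found in 8 of 98 cells with a Prss22 UMI, or 8.16% (3.59% to 15.5%), and in 2.36% of cells without one (1.70% to 3.19%). These intervals did not overlap, unlike those of the other pairs among 9 of a protease with Slpi, Spint1 or Spint2. The value rests on 8 cells in a random thinning. The share of all gene pairs that separate in this way was not computed, so it is not read as an exception.

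The genes most like each member were sought among those seen in at least 10% of cells. Wfdc2 had the closest partners, Tmsb4x (r = 0.49), Gsta4 (0.49) and Aqp5 (0.47), which encode an actin-binding peptide, a glutathione transferase and a water channel. With Wfdc2, 155 genes reached r of 0.2. Mmp7 was most like the neighbouring membrane protein genes Tmem176b (0.33) and Tmem176a (0.32), and Khdc1a (0.25). Prss22 was most like Krt7, a simple epithelial keratin (0.25), S100a6 (0.23) and Anxa2 (0.23). The nearest genes of Spint2 were Gapdh (0.20), Aldoa and Gabarap. No gene reached 0.2 with St14, Spint1 or Slpi, which had 489, 1319 and 274 UMIs against 94085 for Wfdc2. No such count was made for other genes of like level, and the part of level in these counts was not tested. All cells share 1 library, and r fell at equal depth, for example to 0.12 for Prss22 with Krt7.

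Summed over cells, transcripts of the inhibitors far outnumbered those of the proteases, mainly through Wfdc2. The 3 proteases had 3083 UMIs and the 4 inhibitors 102027, a ratio of 0.0302 (0.0291 to 0.0313). Wfdc2 alone held 89.5% of the UMIs of all 7 genes. Without Wfdc2 the ratio was 0.388 (0.372 to 0.405). For matriptase against its own inhibitors, 489 St14 UMIs stood against 7668 UMIs of Spint1 and Spint2, a ratio of 0.0638 (0.0581 to 0.0699). Spint2 outnumbered Spint1 by 4.81 to 1 (4.54 to 5.11). With Prss8, the gene of the matriptase partner prostasin, added to St14 the ratio was 0.119 (0.111 to 0.127). Mmp7 against Timp2 and Timp3, which encode tissue inhibitors of metalloproteinases, gave 0.305 (0.290 to 0.320). UMIs count transcripts, and neither protein nor activity was measured.

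Cell by cell, the median share of protease UMIs among the UMIs of all 7 genes was 1.02%, in the 1793 cells with at least 10 such UMIs. The quartiles were 0% and 3.60%, and the highest cell had 68.1%. In 828 of these cells there was no protease UMI, and in 2 cells the proteases outnumbered the inhibitors. The median depended on depth and was 0% after thinning to 3000 UMIs. Most UMIs behind these shares were of Wfdc2. Without Wfdc2, 341 cells had at least 10 UMIs of the other 6 genes, and the proteases outnumbered the inhibitors in 83 of them (24.3%), including 39 of 87 in cluster 1 and 1 of 77 in cluster 3. Cells rich in Mmp7 pass that minimum through Mmp7 itself, so these counts describe the selected cells only.

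Every kept cell had an inhibitor UMI, and 986 cells, or 52.1%, had a protease UMI (49.8% to 54.4%). A UMI of all 3 proteases was found in 27 cells, and of all 7 genes in 6. No Spint1 or Spint2 UMI was found in 161 cells (8.51%), and 20 of these were among the 401 cells with a St14 UMI. These counts were not matched for depth.

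Over all 7 genes, the protease to inhibitor ratio was 0.0433 in cluster 1 (0.0408 to 0.0459) and 0.0385 in cluster 5 (0.0350 to 0.0422). It lay between 0.0207 and 0.0269 in clusters 2, 3, 4 and 6, and cluster 7 was lowest, with 0.0107 (0.00802 to 0.0140). Leaving out Wfdc2, a choice made after the data were seen, put cluster 6 above clusters 2 and 3 and widened the gap between clusters 4 and 3. Without Wfdc2, the protease to inhibitor ratio was highest in cluster 1, at 0.655 (0.608 to 0.705). Cluster 5 had 0.502 (0.449 to 0.561), and cluster 4 had 0.483 (0.437 to 0.534). Lower ratios were found in cluster 6, with 0.316 (0.266 to 0.375), cluster 3, with 0.199 (0.178 to 0.223), cluster 2, with 0.188 (0.164 to 0.216), and cluster 7, with 0.174 (0.128 to 0.234). Mmp7 held most protease UMIs in the sums of clusters 1, 2, 4, 5 and 6, with 1034 of 1194 in cluster 1. It held 137 of 359 in cluster 3 and 10 of 53 in cluster 7. Mmp7 is of another class than the trypsin-like enzymes on which the Kunitz inhibitors act. These sums therefore do not set each protease against its own inhibitors. With Mmp7 also left out, a choice again made after the data were seen, Prss22 and St14 over the same inhibitors gave 0.0878 in cluster 1 (0.0742 to 0.103) and 0.0842 in cluster 2, the lowest values, and were highest in cluster 4, with 239 protease UMIs against 1194 (ratio interval 0.173 to 0.230). The ratio of St14 to Spint1 with Spint2 lay between 0.0507 in cluster 2 (0.0387 to 0.0654) and 0.0806 in cluster 3 (0.0674 to 0.0957). These clusters were picked as the extremes, and their intervals did not overlap, while those of the other clusters overlapped both. Mmp7 over Timp2 with Timp3 was 0.568 in cluster 1 (0.525 to 0.613) and 0.0490 in cluster 7 (0.0232 to 0.0920). Between the tags, the ratio without Wfdc2 was 0.395 and 0.380.

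**Figure D5:**
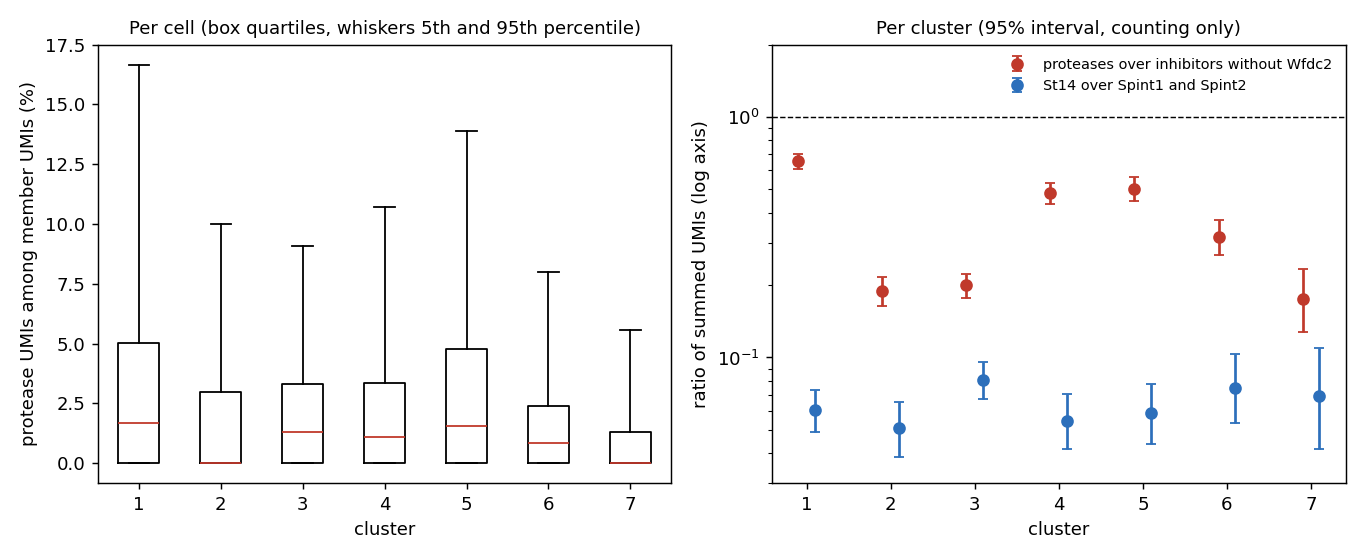
Share of protease UMIs among the UMIs of all 7 genes per cell in percent, by cluster (left, boxes with quartiles, whiskers at the 5th and 95th percentile), and ratios of summed UMIs by cluster on a log axis with 95% counting intervals (right). The ratio without Wfdc2 is highest in cluster 1 at 0.655, where Mmp7 holds 1034 of 1194 protease UMIs, and the St14 ratio stays between 0.0507 and 0.0806.

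Most genes of the wider families were seen in few cells or none. Of 186 listed genes, members included, 43 (23.1%) were seen in at least 10% of cells, against 20.1% of all genes, so the listed genes are near the background. Among the 17 type II transmembrane serine proteases 4 reached that share, with Tmprss2 (116 CPM) and Hpn, the gene of hepsin (97.1 CPM), above St14. Among 31 other trypsin-like proteases 5 did, including Plat, the gene of tissue plasminogen activator (24.4 CPM), Hgfac (22.6 CPM) and Prss8 (21.0 CPM). Of 20 matrix metalloproteinases only Mmp7 and Mmp15 (11.1 CPM) did. Of 9 ADAM sheddases 4 did, led by Adam10 (33.4 CPM) and Adam17 (22.9 CPM). Of 13 cathepsins 6 did, led by Ctsd (387 CPM) and Ctsl (300.4 CPM).

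Of 12 targets of matriptase and its pathway, 8 reached that share. They included Epcam (683 CPM) and its partner Cldn7 (436 CPM), Scnn1a, a subunit of the epithelial sodium channel (86.6 CPM), and F2rl1, the gene of PAR2 (41.8 CPM). Hgf, whose product matriptase can activate, had no UMI.

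On the inhibitor side, 4 of 12 Kunitz genes reached it, and Aplp2 (606 CPM) and App (258 CPM) joined Spint2 and Spint1. Of 5 genes of the TIMP family 2 did, Timp2 (196 CPM) and Timp3 (151 CPM), while Timp1 was at 1.49 CPM. Of 27 serpins 5 did, led by Serpinb6a (366 CPM) and Serpinb11 (72.5 CPM), and of 7 cystatins 2, Cst3 (412 CPM) and Cstb (149 CPM). Of 9 Kazal genes none did, and the highest was Spink4 (15.5 CPM). Of 5 serine proteases of neutrophils none did. Elane, the gene of the elastase that Slpi inhibits, had 0 UMIs. Taking 3 cells of 1892 as the limit, this allows 0.159% of cells with a UMI, and the exact interval reaches 0.195%. Prtn3 was at 1.14 CPM. Over all listed proteases and inhibitors the ratio of UMIs was 0.256 (0.253 to 0.259), and 0.693 without Wfdc2 (0.684 to 0.702). Cathepsins, most of which act in lysosomes, held 25670 of the 38223 protease UMIs in it.

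The listed relatives that neighbour Mmp7, Prss22, Slpi and Wfdc2 in the genome mostly had few UMIs or none. Within 1000000 bases of Mmp7 lay 6 listed metalloproteinase genes, with 4 UMIs in all. Of the 14 WAP genes within that distance of Wfdc2, 10 had no UMI, and Slpi was the highest of the others. Of the 19 listed WAP genes, 13 had no UMI, and Wfdc3 followed Slpi at 1.09 CPM. Around Prss22 lay 6 trypsin-like genes, of which 3 had a UMI and Prss27 was highest, at 2.34 CPM. St14, Spint1 and Spint2 had no listed relative within that distance.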

How the data were processed

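One single-cell library of wild type mouse gastric organoids was analysed. The deposited matrix holds raw UMI counts per gene and barcode, which the authors did not normalize, written by Cell Ranger 6.1.2 per the file headers. The genome build was GRCm38/mm10, per the submitters' processing notes and the labels. The annotation is not given in the sources used here. UMIs of 12 multiplexing tags were kept out of all totals.

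Cells, CPM and intervals (Poisson, Clopper-Pearson and conditional binomial, all exact) were computed from the counts. Cells with at least 500 genes and at most 20% mitochondrial UMIs were kept. Scrublet (scanpy 1.11.5) called 12 doublets (0.634%), which were kept, and removed in an alternative. Clusters came from 2000 variable genes, 30 components, 15 neighbours and Leiden resolution 0.6 (leidenalg 0.10.2), on counts scaled to 10000 per cell and transformed as ln(x + 1). Pearson r used the same values. Squared CV was the sum of squared deviations from depth-scaled expectation minus that expectation, over the sum of squared expectations. Steps were tested on simulated data. Members and lists were chosen with earlier results of these data known. Named genes were the members, the 3 highest genes of each list, direct partners, the 3 genes with the highest r, and leading genes of clusters. Alternatives covered cell filters, doublets, tags, thinning, clustering and the genes summed.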

Additional observations from a re-analysis of the deposited data

How the results depend on the processing

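In 20 alternatives, 413 values of 54 results were recomputed. A reversal, a ratio crossing 1, was defined only for proteases over inhibitors and for St14 over Spint1 with Spint2, and neither reversed. For all other values a change of sign was not called a reversal. For example, r of Slpi with Wfdc2, 0.06 over all cells, was -0.02 in cells of the first tag and 0.17 in cells of the second. Of 42 values of the main results 34 stayed within a set range, as did 328 of the 371 others. The range was the counting interval for levels, shares and ratios, an interval over cells for r and the median per cell, and 1.5 times either way for squared CV and counts. The protease to inhibitor ratio of 0.0302 became 0.0321 as a mean over cells, 0.402 without Slpi and Wfdc2, 0.388 without Wfdc2 alone, 0.120 without Mmp7 and Wfdc2, and 0.256 over all listed proteases and inhibitors. Wfdc2 held most inhibitor UMIs, so leaving it out had to raise the ratio. The median share of protease UMIs per cell, 1.02%, was 0% after thinning and 1.49% in cells with at least 50 UMIs of the members. At resolution 0.3, with 3 clusters, 1 member in place of 4 kept a 2-fold range. The cause of the shift for means over cells was not tested. Leaving out Wfdc2, alone or with Mmp7, thinning for the squared CV, and cluster means as its expectation were chosen after seeing the data. Depth limited Slpi, Prss22 and St14, which had 60, 125 and 138 UMIs after thinning. No paired analysis was possible because a lone library has no partner.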

Other observations

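Among 38 other listed genes with at least 200 UMIs, 7 (18.4%) had a squared CV across cells above 1, against 5.51% of all such genes. The list was read after its values were seen, so this is a description. Spink4, which encodes a Kazal inhibitor of mucous cells, was the most uneven, at 11.4, with 68.1 CPM in cluster 7 and 8.04 CPM in cluster 3. Timp3, which encodes a matrix-bound inhibitor of metalloproteinases, was at 2.97. It had 269 CPM in cluster 5 and 30.4 CPM in cluster 2, while Timp2 was more even than Timp3, with a squared CV of 0.233 against a median of 0.188 over all such genes. The serpin genes Serpinb6b, Serpinb11 and Serpinb1a were at 3.01, 1.56 and 1.37. Serpinb11 was highest in cluster 4 (133 CPM), as was Prss22, and lowest in cluster 7 (11.8 CPM), as was Mmp7. Plat was at 1.52, and Plaur, the gene of the urokinase receptor, lay just above 1.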
